A study of Mus musculus with 41 samples.

Results

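The genes described here are 10 transcription factors of the epithelial-mesenchymal transition (EMT), measured in mammary tumors of mice. They were taken by name, 8 inducers (Snai1, Snai2, Twist1, Twist2, Zeb1, Zeb2, Foxc2 and Prrx1) and 2 antagonists (Grhl2 and Ovol1). All 10 are among the 30175 gene names on the array, and all 10 passed a filter on low signal together with the rest of the 20907 genes tested. Where several probes measure a gene, the one with the brightest mean signal stands for it.

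In EMT, epithelial cells give up cell-cell junctions and apical-basal polarity and take on a mesenchymal, motile shape. The zinc finger proteins Snai1 and Snai2 and the zinc finger-homeodomain proteins Zeb1 and Zeb2 bind E-boxes in the promoters of junction genes such as Cdh1 and repress them. Twist1 and Twist2 are basic helix-loop-helix factors, Foxc2 is a forkhead factor and Prrx1 a paired-type homeodomain factor, and these also act in mesenchyme during development. Grhl2 activates junction genes and represses Zeb1, which in turn represses Grhl2, and Ovol1 is a zinc finger repressor with epithelial function. In the mammary gland Snai2 also belongs to the basal cell layer, so its RNA is not a mark of mesenchyme alone.

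The tumors arose from mammary epithelium of female BALB/c Trp53-null donors, 8 weeks old and 4 in number, placed in the cleared fat pads of wild-type female BALB/c hosts at 3 weeks of age. The transplanted epithelium thus lacks Trp53 in every group, whereas stroma, vessels and immune cells are those of the wild-type host. The hosts ate a low fat diet throughout (LFD), a high fat diet throughout (HFD), a high fat diet up to 10 weeks of age and then the low fat diet (HFD-LFD), or the reverse (LFD-HFD). RNA of 41 tumors was hybridised on 2-color arrays against a reference RNA made from 11 mouse cell lines. The 29 tumors labelled p53 variable are called epithelial here. Of these, LFD and HFD hosts gave 8 each, HFD-LFD hosts 7 and LFD-HFD hosts 6, and 14 were early (a latency under a year) and 15 late. The 12 tumors labelled p53 spindle-like are called spindle cell tumors, 3 from each regimen, with 3 early and 9 late. Each tumor is 1 array, 6 tumors share a number in pairs and may come from 1 mouse per pair, and p-values measure the spread between these tumors.

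Values are log2 ratios of tumor over reference signal, so that 0 means equal signals and a difference of 1 a doubling. The labels give Cy5 to the tumor while the study's methods give it to the reference, and the labels were followed. The Y-linked genes Ddx3y and Eif2s3y, absent from female tissue, gave more Cy3 than Cy5 signal on 41 of 41 arrays. The other Y-linked probes were brighter in Cy3 on 20 and 36 arrays (Uty) and on 16 (Kdm5d). Their Cy3 signal was well above background on only 7, 9 and 1 arrays, in the same order. The 3 slides with the spindle cell tumors hold no epithelial tumor and were scanned apart, on another scanner and with another software version, so a difference of scanning cannot be told apart from one of histology. Of all spots, 52.4% to 94.9% were well above background on an epithelial array and 59.1% to 72.7% on a spindle cell array. For 3 HFD epithelial tumors of 1 slide (40R4A, 57R and 65R) the scanner files and the authors' matrix carry exchanged labels, and those of the scanner files were used. Among the spindle cell arrays M32L had the narrowest log2 ratios, with an interquartile range of 1.01 against 1.39 to 1.76 in the other 11, and M76R had the smallest share of spots well above background. M32L, M76R and M86R, which was not apart in either measure, were left out together as an alternative. In whole tumors, fewer cells of a type and less RNA per cell cannot be told apart.

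The first comparison was between spindle cell and epithelial tumors. Snai1, Twist2 and Zeb1 were higher in the spindle cell tumors and Grhl2 was lower, and the other 6 genes did not pass the threshold (limma, adjusted p under 0.05). These 4 of 10 stand beside 20.1% of all genes called, the 3 higher beside 7.92% and the 1 lower beside 12.2%. The median difference was 0.73 on the log2 scale over the 8 inducers and -1.13 over the 2 antagonists, against -0.07 over all genes. limma fits 1 variance per gene to both histologies. For Twist2, Zeb1 and Grhl2 the SD was larger in the spindle cell tumors, the smaller group, so their SE and adjusted p may be too small. A test with unequal variances was not run.

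**Figure D1:**
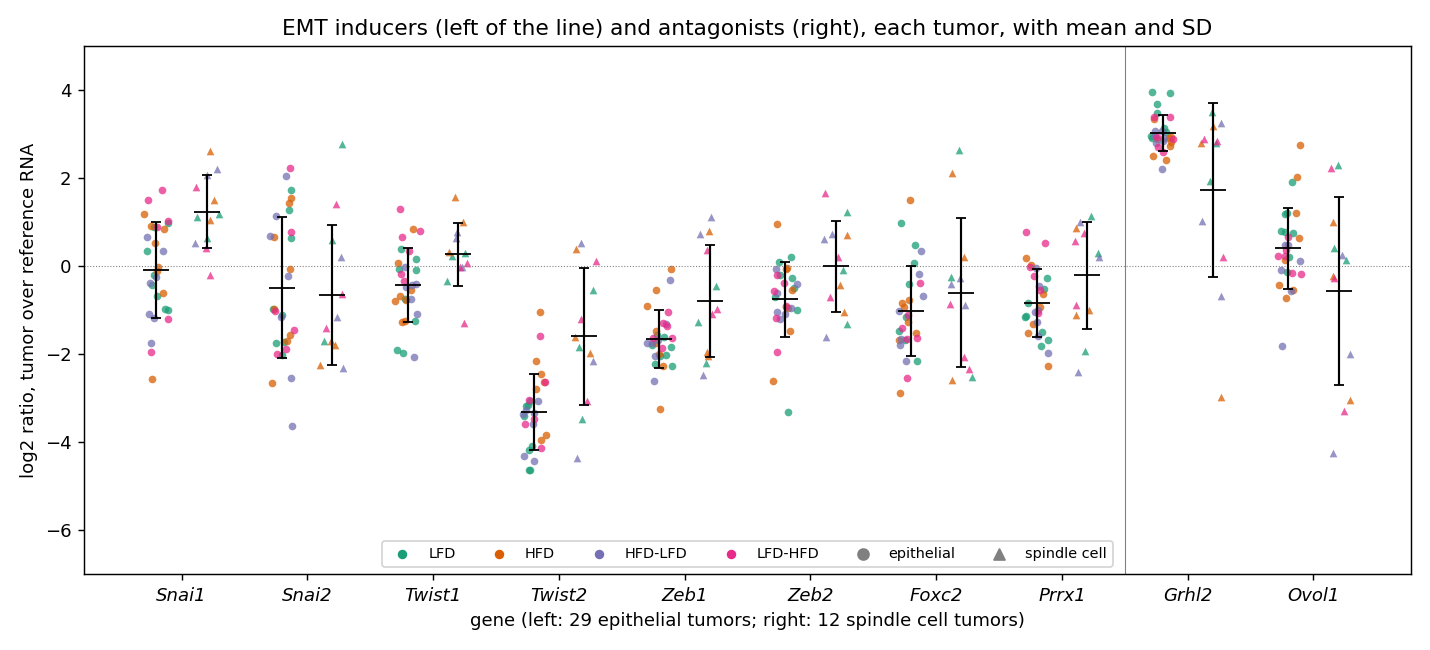
Log2 ratio of tumor over reference signal (vertical axis) of the 10 genes in each tumor, epithelial and spindle cell tumors side by side, colored by diet regimen, with the mean and SD. Grhl2 lies between 2.21 and 3.96 in the epithelial tumors and spreads from -2.98 to 3.50 in the spindle cell tumors.

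Twist2 had the largest difference of the 10 genes. Its log2 ratio ran from -4.64 over a median of -3.36 to -1.04 in these (n = 28, with 1 outlier spot left missing) and from -4.36 over a median of -1.72 to 0.52 in the spindle cell tumors (n = 12). Of the 12 spindle cell tumors 10 lay above the epithelial median and 4 above the highest epithelial tumor. The means, -1.60 ± 1.55 (SD, n = 12) and -3.32 ± 0.87 (SD, n = 28), differed by 1.72 ± 0.37 (SE) on the log2 scale, or 3.30-fold, with a limma adjusted p of 0.00100.

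Snai1, whose protein represses Cdh1, ran from -2.56 over a median of -0.11 to 1.74 in the epithelial tumors and from -0.21 over a median of 1.14 to 2.61 in the spindle cell tumors. Of the spindle cell tumors 11 of 12 exceeded the epithelial median, and 14 of 29 epithelial tumors lay below the lowest spindle cell tumor. The means, 1.24 ± 0.83 (SD, n = 12) and -0.09 ± 1.09 (SD, n = 29), differed by 1.33 ± 0.34 (SE), or 2.51-fold, with a limma adjusted p of 0.00514.

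Zeb1 ran from -3.26 over a median of -1.75 to -0.07 in the epithelial tumors and from -2.48 over a median of -1.03 to 1.10 in the spindle cell tumors. The groups overlapped: 8 spindle cell tumors lay above the epithelial median and 4 below it, and 4 exceeded every epithelial tumor. The means, -0.79 ± 1.28 (SD, n = 12) and -1.65 ± 0.66 (SD, n = 29), differed by 0.87 ± 0.29 (SE), with a limma adjusted p of 0.0317. This call rested on a few tumors. With M118R, M129L, M63L or M76R left out singly, the difference was 0.73, 0.69, 0.72 and 0.76 and the limma adjusted p 0.0792, 0.0872, 0.0845 and 0.0653. Among late tumors alone the difference was 0.57 with an adjusted p of 0.336, the highest over 26 alternative settings, of which the lowest was 0.0104.

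Zeb2, the paralog of Zeb1, had epithelial values from -3.32 over a median of -0.61 to 0.96 and spindle cell values from -1.61 over a median of 0.06 to 1.65, with 2 spindle cell tumors above every epithelial one. The difference was 0.75 ± 0.30 (SE) with a limma adjusted p of 0.0707. Leaving out M128L, M18L or M56LA gave adjusted p-values of 0.0293, 0.0392 and 0.0481, so its side of the threshold depended on single tumors. Zeb2 also had the largest shift of the reference channel among the 10 genes. Relative to the array median, its log2 reference signal was higher by 0.91 on the spindle cell arrays and its tumor signal by 1.69.

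In the genes that passed the threshold the tumor channel carried most of the difference. The log2 shifts of the tumor and the reference channel were 1.80 and 0.07 for Twist2, 1.14 and -0.21 for Snai1, 1.04 and 0.15 for Zeb1, and -1.66 and -0.40 for Grhl2.

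Twist1 had means of 0.27 ± 0.72 (SD, n = 12) and -0.43 ± 0.84 (SD, n = 29), a difference of 0.70 ± 0.27 (SE) with a limma adjusted p of 0.0618, and 11 of 12 spindle cell tumors lay above the epithelial median. Without M86R, the spindle cell tumor with the lowest value of -1.29, the difference was 0.84 with an adjusted p of 0.0249. Prrx1 differed by 0.63 ± 0.31 (SE) with a limma adjusted p of 0.146. Without M128L, at -2.40 the lowest tumor of all, the Prrx1 difference was 0.83 with an adjusted p of 0.0401. Foxc2 differed by 0.42 ± 0.41 (SE) with a limma adjusted p of 0.504 and had an epithelial range of -2.89 to 1.49 and a spindle cell range of -2.59 to 2.64. Its probe was not well above background in 3 spindle cell tumors and 1 epithelial tumor.

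Snai2 was the inducer with no higher mean in the spindle cell tumors. Its means were -0.66 ± 1.59 (SD, n = 12) and -0.50 ± 1.60 (SD, n = 29), a difference of -0.17 ± 0.53 (SE) with a limma adjusted p of 0.856. The epithelial values lay within -3.63 to 2.22 and the spindle cell values within -2.31 to 2.78, and its SD among epithelial tumors was the largest of the 10 genes. The lowest epithelial value, in MSU_108R, enters that SD but is not a measured level, since the probe was not well above background there.

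Of the antagonists, Grhl2 ran from 2.21 over a median of 2.92 to 3.96 in the 29 epithelial tumors, the smallest SD of the 10 genes, and from -2.98 over a median of 2.80 to 3.50 in the 12 spindle cell tumors. Among the spindle cell tumors 5 lay below the lowest epithelial tumor and 7 lay within the epithelial range. The means, 1.73 ± 1.98 (SD, n = 12) and 3.01 ± 0.41 (SD, n = 29), differed by -1.29 ± 0.37 (SE), or 2.44-fold lower, with a limma adjusted p of 0.0114. With SDs this unequal the pooled SE may be too small. Among late tumors alone the difference was -1.32 with an adjusted p of 0.0994, the highest over 26 alternative settings, of which the lowest was 0.00514. Without M63L the difference was -0.86 with an adjusted p of 0.0270.

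Ovol1 ran from -1.81 over a median of 0.30 to 2.75 over 28 epithelial tumors, and its 12 spindle cell values went from -4.24 over a median of -0.04 to 2.29, a difference of -0.97 ± 0.46 (SE) with a limma adjusted p of 0.131. The probe was not well above background in 3 spindle cell tumors (M63L, M129L and M76R) and 2 epithelial tumors (MSU_117R and MSU_108R), so the ratios there, the lowest of both histologies among them, are not measured levels. The lowest ratios with the probe well above background were -2.01 in the spindle cell tumor M118R and -0.73 in the epithelial tumor 40R4A.

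**Figure D2:**
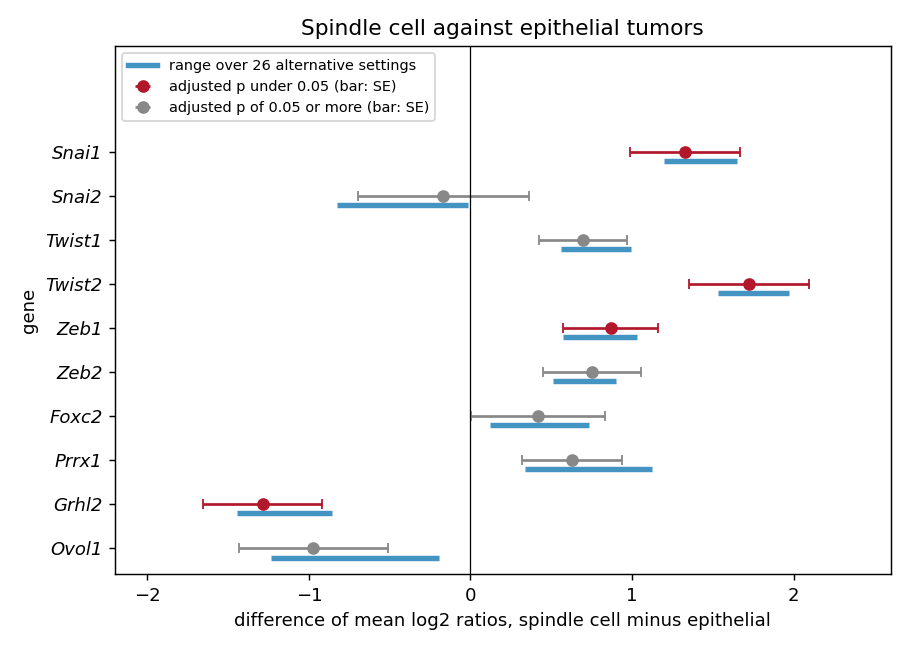
Difference of mean log2 ratios, spindle cell minus epithelial tumors (horizontal axis), with its standard error, for each of the 10 genes, and the range of the difference over 26 alternative settings. The genes called at an adjusted p under 0.05 are Snai1, Twist2, Zeb1 and Grhl2, and no gene's range crosses 0.

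Second probes were compared where the array has them. The second Grhl2 probe gave a difference of -0.72 ± 0.40 (SE), with an unadjusted limma p of 0.0801 against 0.00113 for the first. It was well above background in 9 spindle cell tumors, the first in all 12. The 2 probes correlated at r = 0.47 over the epithelial tumors. The second Prrx1 probe, designed on another Prrx1 transcript, gave 0.61 ± 0.37 (SE), with r = 0.78. The second Zeb2 probe gave 0.87 ± 0.39 (SE), with r = 0.31, and a further Zeb2 probe did not pass the signal filter. The direction was the same for each pair of probes.

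The spindle cell tumors differed widely among themselves. In M63L (HFD, late) the log2 ratios of Grhl2, Zeb1 and Zeb2 were -2.98, 0.80 and 0.72. In M129L (HFD-LFD, early) they were -0.68, 1.10 and 0.73. In M76R (LFD-HFD, late) they were 0.21, 0.36 and 1.65, and in M118R (HFD-LFD, late) 1.01, 0.72 and 0.62. These 4 tumors had the lowest Grhl2 and the highest Zeb1 values of all 41. Ovol1 was at -2.01 in M118R and not well above background in the other three. M32L (LFD, late) came next, with Grhl2 at 1.93 and Zeb1 at -0.44.

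In the other 7 spindle cell tumors Grhl2 lay between 2.80 and 3.50 and Zeb1 between -2.48 and -0.97, inside the epithelial ranges. Snai1 did not keep this order. It was at 2.61, 2.06 and 2.21 in M63L, M129L and M118R but at 0.40 in M76R, while M84R and M56LA, with Grhl2 at 2.84 and 2.80, had Snai1 at 1.79 and 1.50. The highest Twist2 values were 0.52, 0.39, 0.12 and -0.53 in M118R, M63L, M84R and M33R, of which M84R and M33R had Grhl2 in the epithelial range. No test was made between tumors picked by their values.

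The genes these factors act on were then counted. The list of 20 epithelial target genes holds junction, keratin and polarity genes known as targets of Snai and Zeb factors or of Grhl2. Of the 20, 4 were lower in the spindle cell tumors and 0 higher, 19 had a difference below 0, and the median difference was -0.79, beside 12.2% of all genes called lower and a median of -0.07 over all genes. Marveld3, a tight junction protein, was lower, with a difference of -1.72 ± 0.46 (SE) and a limma adjusted p of 0.00738. Marveld2 (tricellulin), Tjp3 (a tight junction scaffold) and Lsr (a tricellular junction protein) differed by -1.19, -1.13 and -1.08, with adjusted p-values of 0.0205, 0.0153 and 0.0323. Cdh1, which encodes E-cadherin, was at 0.37 ± 1.66 (SD, n = 12) and 1.13 ± 0.68 (SD, n = 29), with a limma adjusted p of 0.125, and Epcam differed by -0.77 with an adjusted p of 0.245. The count called lower ran from 1 among late tumors alone to 9 without M32L, M86R and M76R or with 1 tumor per shared number.

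Of 18 mesenchymal target genes, 10 were higher and 0 lower, with a median difference of 1.02, beside 7.92% of all genes called higher. Itga5, a fibronectin receptor subunit, differed by 1.71 ± 0.28 (SE) with a limma adjusted p of 3.23e-05. Mmp2, a gelatinase, and the collagens Col5a1 and Col1a2 differed by 1.41, 1.34 and 1.22, with adjusted p-values of 0.000201, 0.00148 and 0.00805. Vim (vimentin) differed by 1.19 ± 0.30 (SE) with a limma adjusted p of 0.00483. Cdh2 (N-cadherin) and Fn1 (fibronectin) differed by 0.44 and 0.58, with adjusted p-values of 0.496 and 0.336. Among late tumors alone 5 of the 18 were called higher.

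Of 14 other epithelial regulators 0 were called higher and 3 lower, beside 12.2% of all genes called lower. The difference was below 0 for 12 of the 14, with a median of -0.74. Elf5, a factor of the luminal alveolar lineage, was lower at -1.63 and Ehf, an epithelial ETS factor, at -1.11, with limma adjusted p-values of 0.00937 and 0.0227. The paralogs of the antagonists, named here with their values known, did not pass. Grhl1 and Grhl3 differed by -0.97 and -1.23, with adjusted p-values of 0.0560 and 0.0807, and Ovol2 by -0.07 with one of 0.757. Of 15 other EMT regulators 0 were higher and 2 lower, Foxc1, the paralog of Foxc2, at -1.11 and Sox4 at -0.65, with limma adjusted p-values of 0.00472 and 0.0118. That count is near the 12.2% of all genes called lower.

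In the spindle cell tumors the mean log2 ratio of the 20 epithelial target genes was -2.11, -1.89, -0.23 and -0.01 in M63L, M129L, M76R and M118R, the tumors of lowest Grhl2, and between 0.76 and 2.15 in the other 8. In the epithelial tumors it ran from -0.03 over a median of 1.44 to 2.87. The mean of the 18 mesenchymal target genes was -0.01, 0.59, 0.29 and 0.12 in the same 4 tumors and between -1.72 and 0.51 in the other 8, so these overlapped.

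Markers of other cells moved with histology in part. Of 8 fibroblast markers 1 was called higher in the spindle cell tumors (Pdgfrb, by 0.92), and all 8 differences were above 0 (median 0.63). Of 5 endothelial markers 2 were called higher (Pecam1 by 0.87 and Kdr by 0.56), and all 5 differences were above 0 (median 0.56). None of 6 macrophage markers was called, and all 6 differences were above 0 (median 0.26). None of 4 measured adipocyte markers was called, and 3 differences were below 0 (median -0.51). Among 5 skeletal muscle markers 1 was called lower (Mylpf, at -0.58), and 4 differences were below 0 (median -0.25). These stand beside 7.92% of all genes called higher, 12.2% called lower and a median difference of -0.07. Of 6 epithelial markers (Epcam and keratins) 0 were called, but all 6 differences were below 0 (median -0.44). All 6 were well above background in every tumor of both histologies. Their mean ran from -1.03 to 4.26 over the epithelial tumors while the spindle cell tumors spanned -2.33 to 2.32. The mean of the fibroblast markers ran from -3.15 over a median of -1.49 to -0.30 over epithelial tumors, and the spindle cell tumors spanned -2.68 to 1.05 about a median of -1.19, with all 8 well above background in every tumor. In M63L, M129L and M118R that mean was -1.72, -1.20 and -1.18, inside the epithelial range, and in M76R it was 1.05, the highest of the 41 tumors. The part of these cells in the differences between the histologies was not tested.

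Promoters of target genes are shown because Snai and Zeb proteins bind the E-box CAGGTG, which reads CACCTG on the other strand, and Grhl2 the core ACCGGT, which reads the same on both strands. RefSeq windows of build GRCm38.p6, from 250 bases before to 50 after a start site, were at hand for 15 of the 20 epithelial target genes, 11 of the 18 mesenchymal target genes and 5 of the 10 factors. The E-box is in 13 of the 15 epithelial target genes (86.7%), in 1 of the 11 mesenchymal ones (9.09%) and in 1 of the 5 factors, against 22.6% of all 27025 genes with a window. The core ACCGGT is in 2 of 15 (13.3%), 0 of 11 and 0 of 5, against 2.68% of all. The epithelial list was drawn from known targets of these factors, so its share describes the list. In the windows below, written 5′ to 3′ on the gene's strand, capitals mark the matches.
Lsr, chr7:30973420-30973719 (-): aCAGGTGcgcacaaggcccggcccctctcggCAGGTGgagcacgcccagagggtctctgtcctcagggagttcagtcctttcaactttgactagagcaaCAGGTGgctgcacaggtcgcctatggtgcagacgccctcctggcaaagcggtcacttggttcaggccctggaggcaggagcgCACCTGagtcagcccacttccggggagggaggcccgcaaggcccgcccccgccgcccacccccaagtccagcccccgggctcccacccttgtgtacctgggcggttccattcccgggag
Marveld2, chr13:100616895-100617194 (-): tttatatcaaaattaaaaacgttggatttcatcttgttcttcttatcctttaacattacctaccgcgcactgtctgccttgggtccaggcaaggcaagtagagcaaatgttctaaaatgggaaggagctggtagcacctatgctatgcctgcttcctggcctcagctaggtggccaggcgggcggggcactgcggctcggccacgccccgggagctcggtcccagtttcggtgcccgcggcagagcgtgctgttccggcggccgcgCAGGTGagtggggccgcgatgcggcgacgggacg
Epcam, chr17:87635729-87636028 (+): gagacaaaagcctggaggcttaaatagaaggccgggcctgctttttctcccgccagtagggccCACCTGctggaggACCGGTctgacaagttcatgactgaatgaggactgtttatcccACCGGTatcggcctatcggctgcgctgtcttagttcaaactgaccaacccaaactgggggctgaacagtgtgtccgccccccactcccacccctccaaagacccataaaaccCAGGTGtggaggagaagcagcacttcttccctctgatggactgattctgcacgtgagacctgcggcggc
Snai1, chr2:167537945-167538244 (+): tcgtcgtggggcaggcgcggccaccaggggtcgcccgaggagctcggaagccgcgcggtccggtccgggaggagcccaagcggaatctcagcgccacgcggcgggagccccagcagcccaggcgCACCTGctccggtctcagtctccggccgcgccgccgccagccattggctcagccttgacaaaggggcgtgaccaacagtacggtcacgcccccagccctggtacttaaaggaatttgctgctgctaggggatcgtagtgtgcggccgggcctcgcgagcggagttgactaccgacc

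Lsr and Marveld2 are shown as examples of genes called lower in the spindle cell tumors. Tjp3, also called lower, has an E-box in both of its windows, which are not printed. The 4 E-boxes of Lsr begin 249, 219, 151 and 69 bases before the start site. That of Marveld2 begins 16 bases after the start site of the window shown and 43 bases after that of its other window. Epcam holds both motifs, E-boxes at 187 and 19 and the core ACCGGT at 174 and 131 bases before the start. Snai1 is the factor with an E-box among the 5 with a window, 126 bases before the start. A match is a string of letters and not a measured binding site.

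The diet regimens were compared next, within the epithelial tumors. No slide held LFD tumors beside those of another regimen, so a difference from LFD cannot be told apart from one of slide. HFD-LFD tumors also had slides of their own, and only HFD and LFD-HFD tumors shared a slide. None of the 10 genes passed the adjusted p of 0.10 in the limma test over the 4 regimens, in which 99 genes (0.474%) were called. At an unadjusted p under 0.05 there were 4 of the 10, beside 12.9% of all genes. These were Grhl2, Twist1, Twist2 and Prrx1, with limma p-values of 0.0141, 0.0243, 0.0369 and 0.0379 and adjusted p-values of 0.280, 0.323, 0.359 and 0.362. In the contrasts with LFD, 0 genes were called for HFD and 0 for LFD-HFD (0% each) and 262 for HFD-LFD (1.25%), none of them among the 10.

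**Figure D3:**
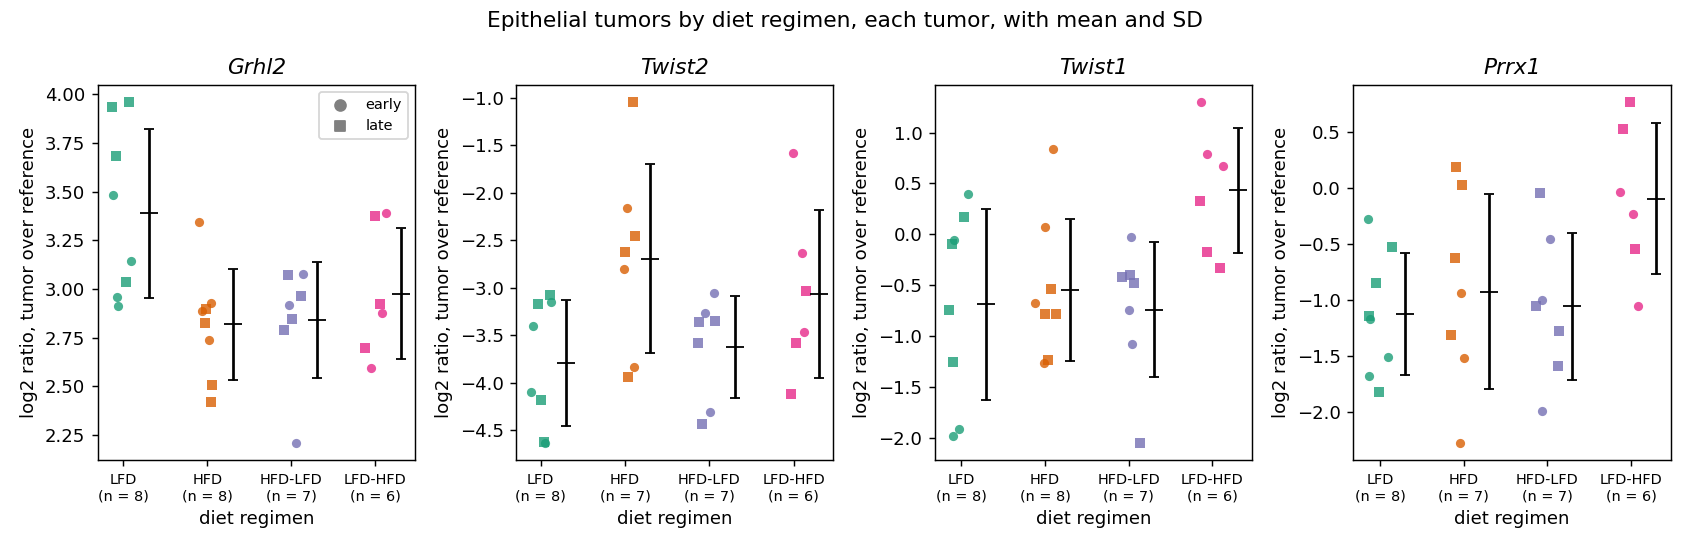
Log2 ratio of tumor over reference (vertical axes) of Grhl2, Twist2, Twist1 and Prrx1 in the epithelial tumors of the 4 diet regimens, early and late tumors marked apart, with the mean and SD. The Grhl2 mean is 3.39 in LFD and between 2.82 and 2.98 in the other regimens, and the points overlap.

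Grhl2 ran from 2.91 over a median of 3.31 to 3.96 in LFD (n = 8), from 2.42 over a median of 2.86 to 3.34 in HFD (n = 8), from 2.21 over a median of 2.92 to 3.08 in HFD-LFD (n = 7) and from 2.60 over a median of 2.90 to 3.39 in LFD-HFD (n = 6). LFD had the highest mean, and every regimen overlapped with it. The differences from LFD were -0.57 ± 0.18 (SE), -0.55 ± 0.19 (SE) and -0.41 ± 0.20 (SE), with limma adjusted p-values of 0.411, 0.183 and 0.745. The 3 comparisons share the LFD tumors, of which the 3 with the highest values lie on 1 slide. With slide as a random block the limma adjusted p-values were 0.801, 0.502 and 0.9999.

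Twist2 ran from -4.64 over a median of -3.75 to -3.08 in LFD (n = 8) and from -3.95 over a median of -2.62 to -1.04 in HFD (n = 7), a difference of 1.10 ± 0.39 (SE) with a limma adjusted p of 0.427. Its means in HFD-LFD and LFD-HFD were -3.62 ± 0.54 (SD, n = 7) and -3.07 ± 0.89 (SD, n = 6). Twist1 and Prrx1 had their highest means in LFD-HFD. Twist1 ran there from -0.33 over a median of 0.50 to 1.30 (n = 6) against -1.99 over a median of -0.42 to 0.39 in LFD, a difference of 1.12 ± 0.39 (SE) with a limma adjusted p of 0.608. Prrx1 ran from -1.06 over a median of -0.13 to 0.77 (n = 6) against -1.82 over a median of -1.15 to -0.27 in LFD, a difference of 1.03 ± 0.36 (SE) with a limma adjusted p of 0.611.

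Ovol1 in HFD-LFD was at -0.23 ± 0.87 (SD, n = 6) against 0.83 ± 0.62 (SD, n = 8) in LFD, a difference of -1.06 with a limma adjusted p of 0.295. The HFD-LFD values include MSU_117R at -1.81 and MSU_108R at -0.08, where the probe was not well above background. Over 10 alternative settings the difference ran from -1.06 to -0.48. The regimen means of Snai2 lay between -0.56 and -0.42 and those of Zeb2 between -0.87 and -0.71. Of 20 epithelial target genes 1 was called in a regimen contrast, HFD-LFD against LFD, beside 1.25% of all genes there. This was Crb3, a polarity protein of the apical membrane, with a difference of -1.18 ± 0.33 (SE). Its limma adjusted p of 0.0996 lay just under the threshold of 0.10, and the tumors of these regimens shared no slide. None of 18 mesenchymal target genes was called in the contrasts with LFD, beside 1.25% of all genes for HFD-LFD and 0% for HFD and LFD-HFD.

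Among the 12 spindle cell tumors 0 genes were called for regimen in limma (0%, with 3.74% of genes at an unadjusted p under 0.05), and 0 of the 10 genes had an unadjusted p under 0.05. With 3 tumors in a regimen, 27.6% of the genes changed by 2 on the log2 scale were recovered in simulated data. Grhl2 was at 1.93, 2.80 and 3.50 in LFD, at -2.98, 2.80 and 3.18 in HFD, at -0.68, 1.01 and 3.24 in HFD-LFD and at 0.21, 2.84 and 2.88 in LFD-HFD. Zeb1 was at -2.20, -1.27 and -0.44 in LFD, at -2.04, -1.94 and 0.80 in HFD, at -2.48, 0.72 and 1.10 in HFD-LFD and at -1.08, -0.97 and 0.36 in LFD-HFD. The values of the regimens overlapped for both genes.

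For pubertal HFD (HFD and HFD-LFD against LFD and LFD-HFD, all 41 tumors) 2 genes were called (0.00957%) and none of the 10, whose differences ran from -0.69 for Ovol1 to 0.27 for Twist2. For adult HFD (HFD and LFD-HFD against LFD and HFD-LFD) 0 genes were called in limma (0%, with 4.57% at an unadjusted p under 0.05). Twist2 was the 1 of the 10 genes at an unadjusted p under 0.05 there, with a difference of 0.87 ± 0.40 (SE), a limma p of 0.0353 and an adjusted p of 0.933.

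Whether the pubertal difference depends on histology was tested as an interaction, in which 89 genes (0.426%) and none of the 10 were called, 29 with a positive term (0.139%) and 60 with a negative one (0.287%). Twist1 was the 1 of the 10 at an unadjusted p under 0.05, beside 12.2% of all genes, with a limma p of 0.0139 and an adjusted p of 0.287. The difference of the differences was 1.33 ± 0.52 (SE).

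Early and late epithelial tumors were compared last. Some slides held only early and others only late tumors, so onset and slide can be told apart only in part. Of all genes 30 were called (0.143%), 20 higher in early tumors (0.0957%) and 10 lower (0.0478%), and of the 10 factors none, with 0 of the 10 at an unadjusted p under 0.05 in limma, beside 13.2% of all genes. The lowest p was that of Snai1, with an early mean of 0.25 ± 1.25 (SD, n = 14), a late mean of -0.41 ± 0.83 (SD, n = 15) and a difference of 0.66 ± 0.38 (SE) with a limma adjusted p of 0.452. The differences of the other 9 ran from -0.86 for Snai2 to 0.32 for Twist1. Grhl2 was at 2.96 ± 0.33 (SD, n = 14) and 3.06 ± 0.47 (SD, n = 15).

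How the factors vary together was examined over tumors within each histology, in 45 pairs each, with Pearson's r, Spearman's rho and permutation p-values (two-sided). At an adjusted p under 0.05 for r, 6 pairs passed in the epithelial and 8 in the spindle cell tumors. Values of 1 array share its hybridisation and slide, so r was also computed with array medians or slide means removed. Each of the 10 genes was represented by 1 probe in these and the later correlations. Over the epithelial tumors the second probe of Grhl2 followed the first at r = 0.47 and that of Zeb2 at r = 0.31. The correlations of Grhl2 and Zeb2 thus hold for the probe used, and they were not run with the second probe.

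**Figure D4:**
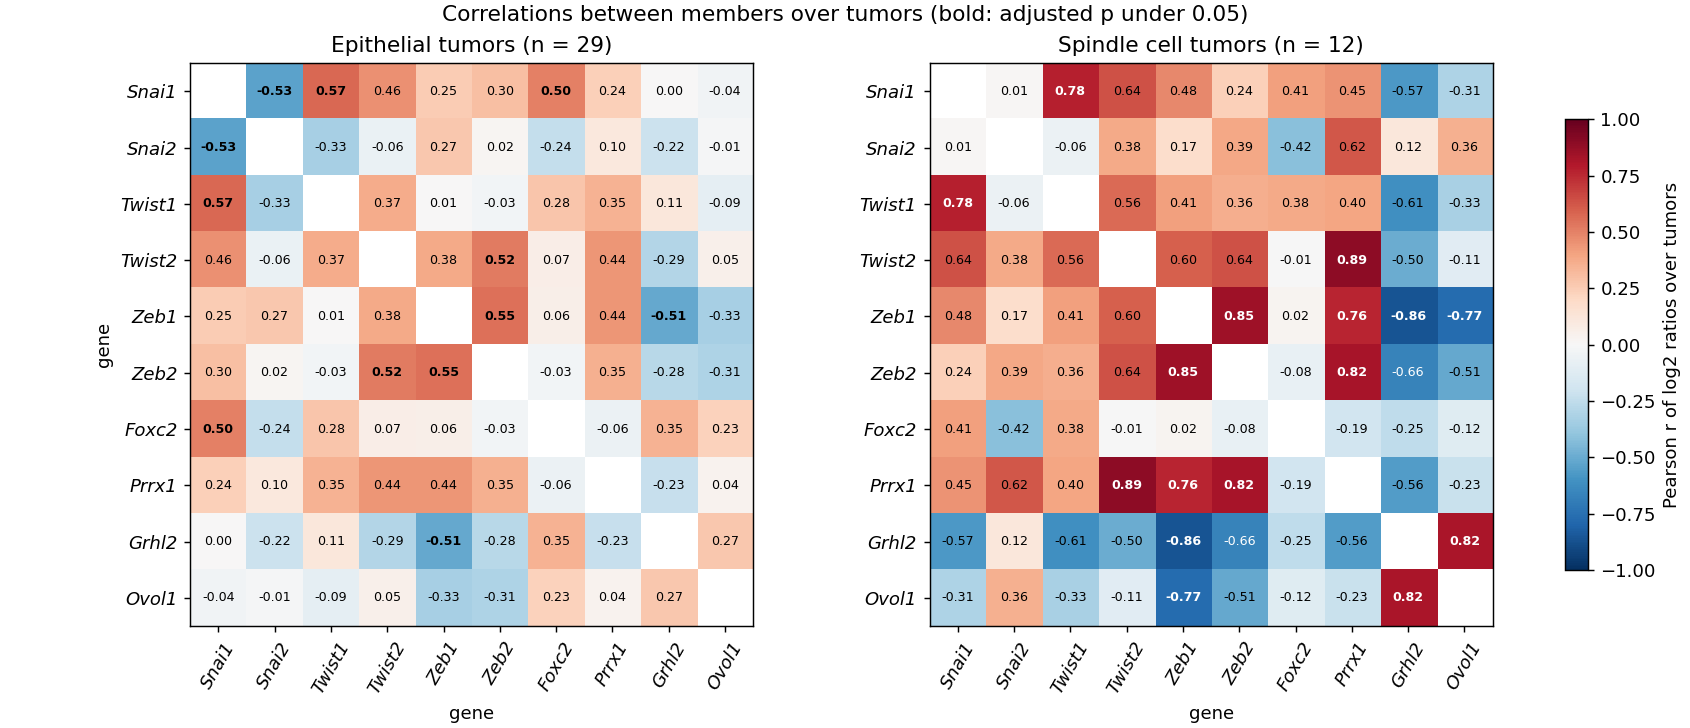
Pearson r between the log2 ratios of the 10 genes over the 29 epithelial tumors and over the 12 spindle cell tumors, with the pairs at an adjusted p under 0.05 marked. Zeb1 with Grhl2 is negative in both, -0.51 and -0.86, and Snai1 with Snai2 is -0.53 in the epithelial and 0.01 in the spindle cell tumors.

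In the epithelial tumors Zeb1 and Grhl2 had r = -0.51 and rho = -0.54 (permutation p = 0.0053 and 0.0028, adjusted p = 0.041 and 0.037), and r = -0.61 without 60L and 66L. It was -0.65 with slide means removed and -0.68 over the 27 tumors of 1 scan session. Zeb1 and Zeb2 had r = 0.55 and rho = 0.54 (permutation p = 0.0021 and 0.0032, adjusted p = 0.041 and 0.037), and r = 0.43 without 60L and 66L. Twist2 and Zeb2 had r = 0.52 and rho = 0.44 (permutation p = 0.0054 and 0.02, adjusted p = 0.041 and 0.083). Without 62L and 80L their r was 0.37 with a permutation p of 0.061, no longer under 0.05. With slide means removed these pairs were at 0.54 and 0.56.

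Snai1 went with Twist1, at r = 0.57 and rho = 0.60 (permutation p = 0.0013 and 0.00078, adjusted p = 0.041 and 0.035), and r = 0.62 without 60L and 90R. Snai1 went against Snai2, at r = -0.53 and rho = -0.57 (permutation p = 0.0029 and 0.0018, adjusted p = 0.041 and 0.037), and r = -0.51 without 60L and 90R. Snai1 with Foxc2 had r = 0.50 and rho = 0.49 (permutation p = 0.0055 and 0.0079, adjusted p = 0.041 and 0.063). Without 60L and 90R this r was 0.33 with a permutation p of 0.09, no longer under 0.05. With slide means removed the 3 pairs were at 0.60, -0.63 and 0.57.

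In the spindle cell tumors Zeb1 and Grhl2 had r = -0.86 and rho = -0.92 (permutation p = 8e-05 and 6e-05, adjusted p = 0.0022 and 0.0027), and r = -0.91 without M129L and M63L. Twist2 and Prrx1 had r = 0.89 and rho = 0.88 (permutation p = 0.0001 and 0.00032, adjusted p = 0.0022 and 0.0072), and r = 0.82 without M118R and M128L. Zeb1 and Zeb2 had r = 0.85 and rho = 0.86 (permutation p = 0.00084 and 0.00061, adjusted p = 0.011 and 0.0091), and r = 0.88 without M129L and M63L. With slide means removed the 3 pairs were at -0.86, 0.87 and 0.90.

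The other 5 pairs passed with r but not with rho. Zeb2 with Prrx1 had r = 0.82 and rho = 0.65 (permutation p = 0.0014 and 0.026, adjusted p = 0.013 and 0.12), and r = 0.80 without M128L and M76R. Grhl2 with Ovol1 had r = 0.82 and rho = 0.69 (permutation p = 0.00094 and 0.017, adjusted p = 0.011 and 0.1), and r = 0.79 without M129L and M63L. Zeb1 with Prrx1 had r = 0.76 and rho = 0.66 (permutation p = 0.0052 and 0.022, adjusted p = 0.029 and 0.11), and r = 0.80 without M129L and M63L. Zeb1 with Ovol1 had r = -0.77 and rho = -0.71 (permutation p = 0.0042 and 0.014, adjusted p = 0.027 and 0.1). Without M129L and M63L this r was -0.60 with a permutation p of 0.068, no longer under 0.05. Snai1 with Twist1 had r = 0.78 and rho = 0.69 (permutation p = 0.0029 and 0.017, adjusted p = 0.022 and 0.1). Without M63L and M86R this r was 0.44 with a permutation p of 0.2, no longer under 0.05. With slide means removed these 5 pairs, in the same order, were at 0.83, 0.85, 0.87, -0.79 and 0.82. For the pairs with Ovol1, 3 of the 12 spindle cell ratios are those not well above background. Whether a pair's r differs between the histologies was not tested.

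**Figure D5:**
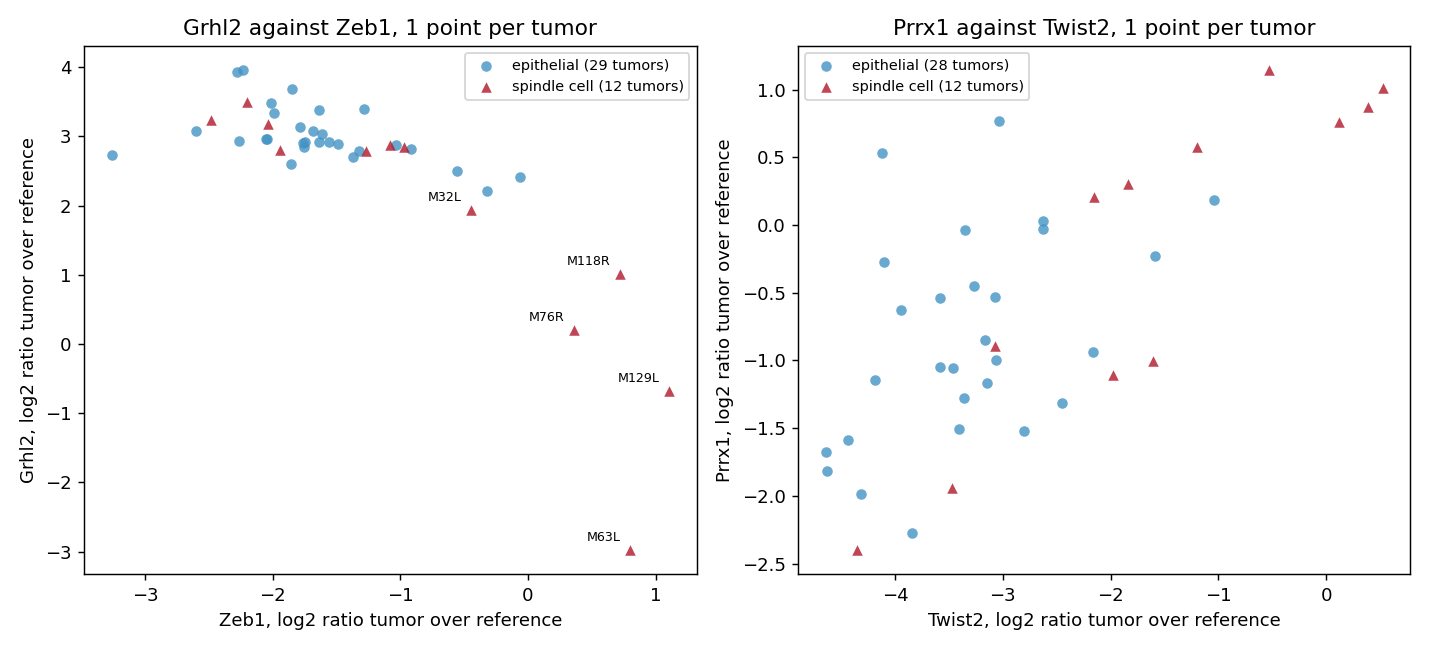
Grhl2 against Zeb1, and Prrx1 against Twist2, as log2 ratios of tumor over reference, 1 point per tumor, with epithelial and spindle cell tumors marked apart. The 5 named spindle cell tumors have Grhl2 between -2.98 and 1.93, below the lowest epithelial tumor at 2.21.

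The 10 genes were also set against the means of 2 gene lists over the 29 epithelial tumors, in 20 pairs. Zeb1 followed the 8 fibroblast markers at r = 0.77 and rho = 0.83 (permutation p = 1e-05 and 1e-05, adjusted p = 0.0002 and 0.0002), the smallest p the resamples can give, and r = 0.70 without 13L and 60L. With slide means removed it was 0.65. Zeb2 had r = 0.66 and rho = 0.49 (permutation p = 0.0001 and 0.0071, adjusted p = 0.001 and 0.038) with these markers, and r = 0.45 without 13L and 60L. Twist2 had r = 0.64 and rho = 0.49 (permutation p = 0.00023 and 0.0095, adjusted p = 0.0015 and 0.038), and r = 0.47 without 13L and 62L. Prrx1 had r = 0.48 and rho = 0.50 (permutation p = 0.0093 and 0.0081, adjusted p = 0.037 and 0.038). Without 13L and 62L its r was 0.36 with a permutation p of 0.073, no longer under 0.05. With slide means removed these were at 0.68, 0.40 and 0.38. Fibroblasts are known to express all 4 of these genes, and how much of each signal comes from the host's stroma was not tested.

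With the mean of the epithelial target genes 1 of the 10 passed, Zeb1, at r = -0.55 and rho = -0.48 (permutation p = 0.0029 and 0.0089, adjusted p = 0.015 and 0.038), and r = -0.56 without MSU_117R and 60L. It was -0.42 with slide means removed and -0.35 over the 27 tumors of 1 scan session. Grhl2, an activator of several of these genes, had r = 0.13 and rho = 0.24 (permutation p = 0.51 and 0.21, adjusted p = 0.73 and 0.34), and Ovol1 r = 0.45 and rho = 0.24 (permutation p = 0.018 and 0.22, adjusted p = 0.061 and 0.34).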

How the data were processed

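Tumor RNA and reference RNA were hybridised together on Agilent 2-color arrays of 43020 gene spots, 1 array per tumor. The deposited scanner files give the intensity of each spot in both channels after the authors' background subtraction and dye normalization by Agilent Feature Extraction (version 11.0.1.1 or 10.5.1.1 in the file headers, 8.5.1.1 in the submitters' processing notes). The deposited matrix of log2 values was used as an alternative.

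The log2 ratio of the processed signals, Cy5 over Cy3, was taken per spot, with outlier spots left missing (0.732% of the values of the 10 genes). Spots of 1 probe were averaged. The signal filter asked for a value over 10 in Cy3 and Cy5 alike on 80% or more of the arrays, which 27301 of 39429 probes met, and the brightest probe by mean signal stood for each of 20907 genes. Groups were compared with limma 3.58.1 in R 4.3.3 (lmFit and eBayes), with Benjamini-Hochberg adjustment over all genes, at an adjusted p of 0.05 for histology and 0.10 elsewhere. The methods' SAM test was not run, and limma took its place. Correlations used 100000 permutations (scipy 1.17.1). Precision is limited by the number of arrays. The fit was tested on simulated data: between the histologies it recovered 74.8% of genes changed by 1 on the log2 scale and 95.6% of those changed by 2 (20907 genes, 200 changed), with 5.74% false calls. The simulated noise was independent between arrays, with the same SD in all groups and no slide or scanner effect. The shares recovered and falsely called may therefore differ in the measured data.

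The 10 genes and the gene lists were chosen with earlier results of these data known. Named genes are the 10, up to 4 genes per list and direction with the largest difference among those called between the histologies, Cdh1, Epcam, Vim, Cdh2 and Fn1, and the 3 genes most correlated with each of the 10 over the epithelial tumors (well above background on at least 15). Grhl1, Grhl3, Ovol2, Crb3 and tumor 60L were added with their values known. Of the list genes, 1 is not reported here. Alternatives were the background correction (normexp, offset 50, with loess), array medians removed, the authors' matrix, outlier spots kept, the mean over probes, other signal filters, slide as a block, covariates, and tumors left out. Correlations with slide means or array medians removed or over part of the tumors, and the histology comparison without tumor 60L, were added after seeing the data.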

Additional observations from a re-analysis of the deposited data

Results flagged for a closer look

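Each of the 10 genes was looked at in each of the 4 regimens of the epithelial tumors, 40 groups in all, for a tumor far from the rest of its group. Such a tumor was found in 2 of the 40 groups, and chance gives about 1 in 20. In the HFD-LFD group Grhl2 was lowest in tumor MSU_117L, at 2.21, with the nearest tumor at 2.79, and this gap was 0.669 of the range of the 7 tumors. In the LFD group Zeb2 was lowest in tumor 13L, at -3.32, with the nearest tumor at -0.994, and this gap was 0.658 of the range of the 8 tumors.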

How the results depend on the processing

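Between the histologies 3 to 6 of the 10 genes were called over 26 alternative settings, and no difference changed direction. Snai1 and Twist2 were called in all 26, Zeb1 in 19 and Grhl2 in 25. With slide as a random block the Zeb1 difference was 0.88 with an adjusted p of 0.0791, and without M32L, M86R and M76R 0.73 with one of 0.101. Twist1 was called in 3 settings, Zeb2 in 5 and Prrx1 in 2, among them Twist1 in late tumors alone (0.99, adjusted p 0.0115) and Prrx1 in the authors' matrix (1.13, adjusted p 0.0142). In every other comparison 0 of the 10 genes were called under all alternatives run. The cause of these changes was not tested.

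Counts over all genes moved more. Between the histologies 7891 genes were called without a signal filter (4264 higher), 2539 with slide as a random block (1031 higher, 1508 lower) and 2346 in late tumors alone (1041 higher, 1305 lower), against 4210 (1656 higher, 2554 lower). The share called higher was 39.3%, and 27.7% with array medians removed. For the regimens in epithelial tumors 210 genes were called in the authors' matrix, 0 with the slide block and 10 with 1 tumor per shared number, against 99. For HFD against LFD 1 gene was called without a filter and 7 without 40R4A, 57R and 65R, against 0. For HFD-LFD against LFD 6 were called with the slide block and 89 with 1 tumor per shared number, against 262, and for LFD-HFD against LFD 2 with normexp, against 0. Over the regimens in spindle cell tumors 1 gene was called without M32L, M86R and M76R, and from 0 to 12 with 1 tumor left out, 12 without M84R. For pubertal HFD 0 were called in the matrix, with the slide block and in epithelial tumors only, and 22 without M32L, M86R and M76R, against 2. For early against late tumors 1 was called with normexp, 10 in the matrix, 59 with outlier spots kept, 55 with the mean over probes, 16 without a filter, 0 with slide as a random block, 4 with slide as a fixed block, 0 without 40R4A, 57R and 65R, 1.1e+02 (rounded) with regimen as a covariate and 9 with the matrix's labels, against 30. For the interaction 2370 were called with normexp, 42 with outlier spots kept, 33 with the slide block, 22 with 1 tumor per shared number and 16 without M32L, M86R and M76R, against 89.

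With normexp 5 pairs of the 10 genes correlated at the threshold in spindle cell tumors, against 8, and 2 of the pairs with gene lists, against 5. The calls lost were Snai1 with Twist1 (0.68), Zeb1 with Ovol1 (-0.51) and Grhl2 with Ovol1 (0.67) in spindle cell tumors, Snai1 with Foxc2 (0.27) in epithelial tumors, the fibroblast markers with Zeb2 (0.45) and Prrx1 (0.38), and the epithelial target genes with Zeb1 (-0.42). No paired analysis was possible because only 1 tumor number (56R and M56LA) occurs in both histologies and only 1 (11L and 11R) in both early and late epithelial tumors. Signal over background limits Ovol1 and Foxc2 most, each of which had 3 spindle cell tumors not well above it.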

Other observations

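TGF-beta signaling is a main input to the EMT factors, and 14 of its genes were counted between the histologies. Of these 3 were higher in spindle cell tumors and 1 lower (limma, adjusted p under 0.05), beside 7.92% and 12.2% of all genes. The ligand gene Tgfb1 was at 1.44 ± 0.55 (SD, n = 12) against 0.43 ± 0.52 (SD, n = 29), a difference of 1.01 ± 0.18 (SE) with a limma adjusted p of 0.000105. Inhba, which encodes the activin A subunit, differed by 0.96 and the receptor gene Tgfbr2 by 0.58, with limma adjusted p-values of 0.0404 and 0.0456. The lower gene was Smad4, the common mediator of the pathway, at -0.46 with a limma adjusted p of 0.00334. The median over the 14 genes was -0.16, beside -0.07 over all genes.

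Over the epithelial tumors, the genes with the highest Pearson r to each factor among 20507 genes were taken as a description, since points share arrays and slides. For Snai1 they were Adamts4 (r = 0.89, n = 29), Litaf (r = 0.84, n = 26) and Hbegf (r = 0.84, n = 29). For Snai2, which belongs to the basal layer, they were Trim29 (r = 0.90, n = 28), Btbd11 (r = 0.90, n = 28) and Bmp7 (r = 0.90, n = 27). For Zeb1 they were Pcolce (r = 0.80, n = 29), Jam3 (r = 0.77, n = 28) and S1pr1 (r = 0.76, n = 29), and for Zeb2 Rab8b (r = 0.85, n = 28), Fli1 (r = 0.83, n = 29) and Dab2 (r = 0.80, n = 29). Twist2 was closest to Col5a1 (r = 0.78, n = 27), 2900001G08Rik (r = 0.77, n = 28) and Clstn2 (r = 0.77, n = 28), and Twist1 to A_55_P2066274 (r = 0.77, n = 27), 5830427D02Rik (r = 0.77, n = 29) and Psmd7 (r = 0.74, n = 28). Prrx1 was closest to Scpep1 (r = 0.73, n = 28), Dpysl2 (r = 0.68, n = 27) and Tmem30a (r = 0.66, n = 28), and Foxc2 to Yjefn3 (r = 0.74, n = 29), Akap12 (r = 0.68, n = 29) and Cux1 (r = 0.67, n = 29). The antagonist Grhl2 was closest to 4930565A17 (r = 0.75, n = 29), 2610015P09Rik (r = 0.72, n = 29) and Mcee (r = 0.69, n = 28), and Ovol1 to Ttc22 (r = 0.77, n = 28), AI661453 (r = 0.69, n = 27) and Ppl (r = 0.68, n = 27).

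The epithelial HFD tumor 60L had the lowest Snai1 and Zeb1 values of the 41 tumors, -2.56 and -3.26, with a mean of 4.26 over the epithelial markers and -3.15 over the fibroblast markers. Its array is 1 of 2 from a scan session apart from the other epithelial tumors. On it 21.5% of spots were outliers, against at most 7.38% on any other array, its median log2 ratio of 0.65 was the highest of the 41, and against the average over all other arrays its r was 0.76. The part of the array in these values was not tested.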
